A study of Homo sapiens with 16 samples.

Results

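DDIT4, the sestrins and the core genes of the TSC and mTOR complexes were followed in U937 cells, a human line from a histiocytic lymphoma, under UNBS1450, a semi-synthetic cardenolide. Cardenolides are cardiac glycosides, which block the Na+/K+-ATPase that keeps sodium low and potassium high inside the cell. The set holds 10 genes chosen by name (DDIT4, DDIT4L, SESN1, SESN2, SESN3, TSC1, TSC2, MTOR, RPTOR and RICTOR), and every array spot that carries one of these symbols was taken. The genes have 13 spots, of which 12 spots of 9 genes had values, against 28970 spots of 17329 genes in the whole table. DDIT4L, a relative of DDIT4, had 1 spot without a value on any array and was not analysed here. The set was built around the level of DDIT4 at 9 h, so all values of these genes at 9 h, and that of DDIT4 at 6 h, are given as a description. The count of these genes past the call rule at 9 h is printed beside that of all genes, and nothing is read from it.

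Each of the 16 arrays set treated cells in one dye against a time-matched control culture in the second dye, with 4 arrays at each of 0, 3, 6 and 9 h. Treated cells received 20 nM UNBS1450 in RPMI medium with fetal calf serum, starting in exponential growth, and control cells received no agent. The methods list 0 h as untreated, which makes both channels of those arrays untreated cells, although the labels name the agent there too, and some label fields spell the line U397. Treated RNA was in Cy5 in replicates 1 and 2 and in Cy3 in replicates 3 and 4. The orientation of the dyes and the pair of replicates therefore cannot be told apart. Arrays of 1 time are biological replicates by their labels, and U937 is a single established line. The p-values therefore measure the spread between arrays of cultures of that line. For each spot the fit pooled this spread over all 16 arrays, so a p-value does not reflect the spread at its own time. The DDIT4 mRNA spot described below had a standard error of 0.25 at both 0 and 9 h, with SDs of 0.05 and 0.81. The model behind the p-values had no dye term, so the pooled spread also holds any difference between the dye orientations. All values below are log2 ratios of UNBS1450-treated over control RNA, in which a value below 0 means less RNA in treated cells. They hold no absolute levels, so fewer cells of a kind and less RNA per cell cannot be told apart, and the line could not be checked by the level of its markers.

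mTOR is a kinase that works in a pair of complexes. mTORC1, built on RPTOR, drives protein synthesis and holds back autophagy when nutrients and growth factors are at hand, and mTORC2, built on RICTOR, phosphorylates AKT. The TSC complex of TSC1 and TSC2 restrains mTORC1 by switching off the small GTPase RHEB. DDIT4, also called REDD1, is an inducible protein that acts through the TSC complex to lower mTORC1 activity under hypoxia, energy stress or glucocorticoids. Sestrins lower mTORC1 activity as well, through the amino acid sensing machinery at the lysosome, and SESN2 binds leucine.

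The promoters below are shown because DDIT4, the gene around which the values turn, is a well-known target of hypoxia and stress factors that read short DNA words. They are the 250 bases before the transcription start in RefSeq (GRCh38.p14), printed 5′ to 3′ on the strand of the gene. Capitals mark ACGTG, the core of hypoxia response elements, CACGTG, an E-box that itself holds ACGTG, and TGATGNAA, the word read by C/EBP and ATF factors, each searched on both strands.

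DDIT4 promoter, chr10:72273674-72273923, plus strand: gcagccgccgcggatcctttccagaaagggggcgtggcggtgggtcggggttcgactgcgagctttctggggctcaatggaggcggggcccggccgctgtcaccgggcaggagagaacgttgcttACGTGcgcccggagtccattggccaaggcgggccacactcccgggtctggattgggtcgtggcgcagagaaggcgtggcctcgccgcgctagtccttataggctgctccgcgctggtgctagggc
TSC2 promoter at its first start, chr16:2047735-2047984, plus strand: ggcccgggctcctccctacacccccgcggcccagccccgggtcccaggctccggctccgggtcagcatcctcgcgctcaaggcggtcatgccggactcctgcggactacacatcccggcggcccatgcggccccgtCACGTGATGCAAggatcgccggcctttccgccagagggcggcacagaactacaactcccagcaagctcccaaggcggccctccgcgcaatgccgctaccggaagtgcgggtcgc
RICTOR promoter, chr5:39074400-39074649, minus strand: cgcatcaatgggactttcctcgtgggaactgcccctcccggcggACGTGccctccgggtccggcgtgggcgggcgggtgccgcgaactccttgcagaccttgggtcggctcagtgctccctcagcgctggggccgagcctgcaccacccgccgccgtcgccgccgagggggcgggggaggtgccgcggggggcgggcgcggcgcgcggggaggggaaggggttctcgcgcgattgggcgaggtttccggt

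These were the 3 of 13 promoter windows of the 10 genes that held ACGTG, a word found in 18.5% of all 35116 promoter windows of that length. In DDIT4 it began 125 bases before the start, and in RICTOR 206 bases before it. In TSC2 a CACGTG began 114 bases and a TGATGNAA 110 bases before the start, overlapping each other, and each of these words occurred in 1 of the 13 windows, against 6.34% and 3.14% of all windows. A further word, CCAAT, was in 6 of the 13 windows and in 32.0% of all. The matches are letters in a window and say nothing of binding.

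DDIT4 was lower in UNBS1450-treated cells at 6 and 9 h on the spot annotated with its RefSeq mRNA. At 0 h this spot read −0.10, −0.07, −0.05 and 0.02 on the arrays of replicates 1, 2, 3 and 4 (mean −0.05, SD 0.05), which places all 4 arrays of untreated cells near equality. At 3 h it read 0.07, 0.07, −0.04 and −0.43 (mean −0.08, SD 0.24), with replicate 4 alone away from 0. Neither mean passed limma's test (Benjamini-Hochberg adjusted p = 0.997 at 0 h and 1.000 at 3 h).

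At 6 h DDIT4 read −0.44, −0.14, −0.61 and −1.77, a mean of −0.74 (SD 0.71, n = 4) or 60.0% of control. At 9 h it read −0.88, −0.69, −1.25 and −2.50, a mean of −1.33 (SD 0.81, n = 4; standard error of the fit 0.25) or 39.8% of control. All 8 arrays of these times were below 0. The mean at 9 h differed from that at 6 h by −0.59 (SE 0.35) and from that of untreated cells at 0 h by −1.28 (SE 0.35). The mean at 6 h differed from that at 0 h by −0.69 (SE 0.35). These differences are given as a description, and limma called no spot of 28970 (0%) in any of these contrasts. Replicate 4 was the lowest at 3, 6 and 9 h, and without it the mean was −0.39 at 6 h and −0.94 at 9 h. The arrays with treated RNA in Cy5 averaged −0.29 at 6 h and −0.79 at 9 h, against −1.19 and −1.88 for those with treated RNA in Cy3. Among 17329 genes ordered from the lowest ratio, DDIT4 stood at place 3 at 6 h and place 2 at 9 h, after place 5146 at 0 h and place 2979 at 3 h.

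**Figure D1:**
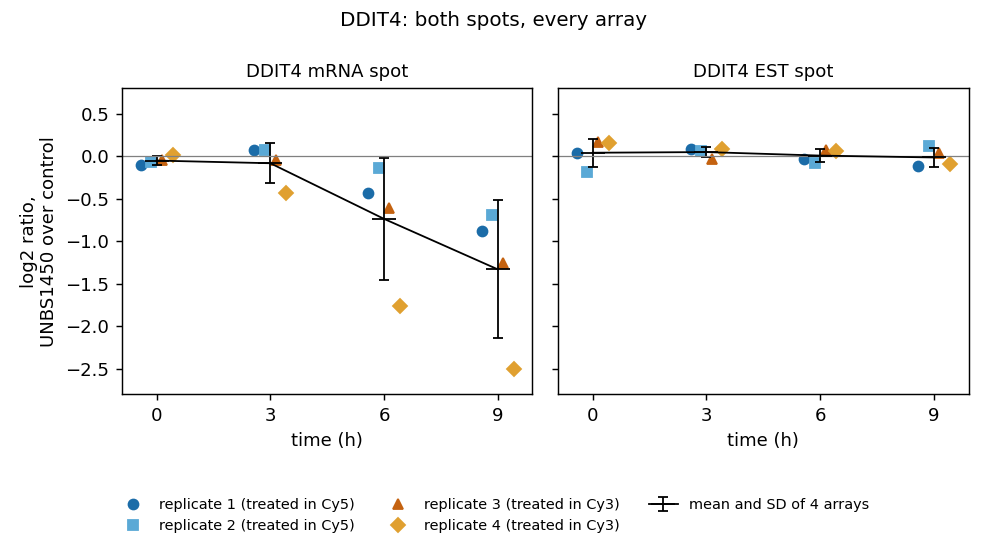
DDIT4 on its 2 spots, with time in hours on the x axis and the log2 ratio of UNBS1450-treated over control RNA on the y axis. Points are single arrays, the line joins the means and bars are the SD of 4 arrays; the mRNA spot goes down to a mean of −1.33 at 9 h with replicate 4 at −2.50, whereas the EST spot stays within −0.19 and 0.17.

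The other DDIT4 spot, annotated with an expressed sequence tag (EST), gave no such course. It read −0.03, −0.08, 0.08 and 0.06 at 6 h and −0.12, 0.12, 0.03 and −0.09 at 9 h, with means of 0.01 and −0.01. Over all times its 16 values lay between −0.19 and 0.17, and the spots of this gene therefore disagree on every array of 9 h. Spot intensities were not used here, so whether the EST spot was above background was not tested. The gene is described by its mRNA spot below, which had the higher F-statistic over 3, 6 and 9 h.

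A gene was called when it differed by 1.3-fold or more at an adjusted p under 0.05. DDIT4 was the only one of the 9 genes called at 9 h, in a comparison that called 0.75% of all genes (0.375% lower and 0.375% higher). Since that value chose the set, nothing is read from the count. The mean was −1.48 without replicate 1, −1.54 without replicate 2 and −1.36 without replicate 3, and DDIT4 did not pass the rule in any of these fits. At 0, 3 and 6 h limma called none of the 9 genes and 0% of all 17329, where 100 (0.577%), 57 (0.329%) and 126 (0.727%) genes passed the fold at an unadjusted p under 0.05. At 9 h 855 genes (4.93%) did so. The array of replicate 4 at 9 h had the widest spread over spots, with an SD of 0.42 against 0.14 to 0.27 on the other 15 arrays.

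The sestrins had means on either side of 0 at 9 h. SESN1, a sestrin first described as a target of p53, has 2 spots, called A and B here, and both lay above 0 on every array at 9 h. At 9 h spot A read 0.14, 0.17, 0.05 and 1.10 and spot B read 0.36, 0.15, 0.21 and 1.19, with means of 0.37 and 0.48 (SD 0.49 and 0.48, n = 4). Replicate 4 set most of this, and without it the means were 0.12 and 0.24.

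At 6 h SESN1 read −0.00, −0.14, 0.22 and 0.42 on spot A and 0.09, −0.02, 0.33 and 0.61 on spot B. Replicates 3 and 4 were the higher arrays on both spots, and neither mean passed the test (0.13 with an adjusted p of 0.845 and 0.25 with an adjusted p of 0.643, limma). At 0 and 3 h the SESN1 values lay between −0.28 and 0.27, with both signs among the arrays of each time.

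SESN2, the leucine-binding sestrin and a target of ATF4, was below 0 in most arrays of 6 and 9 h. It read −0.22, −0.08, −0.34 and −0.07 at 6 h, a mean of −0.18 (SD 0.13, n = 4) with all 4 arrays below 0, which limma did not call (adjusted p = 0.545). At 9 h it read −0.29, −0.26, −0.36 and 0.14, a mean of −0.19 that became −0.30 without replicate 4, the only array above 0. At 0 h replicates 1 and 2 were already at −0.14 and −0.28 in untreated cells, so the 6 h mean differed from that of 0 h by only −0.10 (SE 0.11, adjusted p = 1.000).

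SESN3, a FOXO target, read −0.05, 0.13, −0.04 and 0.17 at 6 h (mean 0.05, adjusted p = 0.903, limma) and 0.12, −0.13, 0.37 and 0.35 at 9 h (mean 0.18, SD 0.23). Replicates 3 and 4, the arrays with treated RNA in Cy3, were the higher ones at 9 h.

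**Figure D2:**
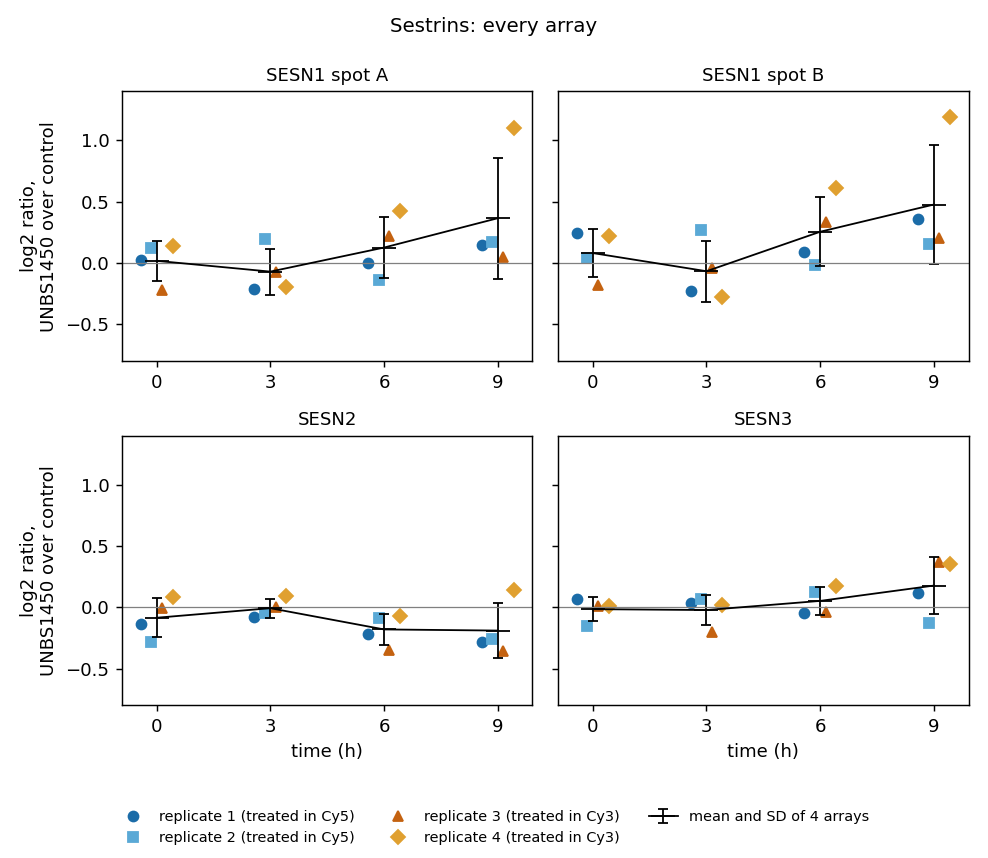
The sestrin spots by array, with time in hours on the x axis and the log2 ratio of UNBS1450-treated over control RNA on the y axis, points for arrays, and means with the SD of 4 arrays. SESN1 is above 0 on all arrays of 9 h with replicate 4 at 1.10 and 1.19, whereas SESN2 is below 0 at 9 h except for replicate 4 at 0.14.

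No TSC gene passed the test at 0, 3 or 6 h. TSC1, the stabilising subunit, read 0.29, −0.20, 0.15 and 0.12 at 6 h (mean 0.09, SD 0.21, adjusted p = 0.858, limma) and −0.04, −0.12, 0.02 and 0.27 at 9 h (mean 0.04, SD 0.17). TSC2, the subunit that acts on RHEB, read −0.46, −0.03, −0.17 and −0.17 at 6 h (mean −0.21, SD 0.18, adjusted p = 0.547) and −0.27, −0.05, −0.20 and −0.11 at 9 h (mean −0.16, SD 0.10). All 8 of these TSC2 values were below 0, but so were the 4 of untreated cells at 0 h, which were −0.23, −0.69, −0.07 and −0.03 (mean −0.26, adjusted p = 0.873). At 3 h TSC2 had a mean of 0.11, which was 0.36 above that of 0 h (SE 0.13, adjusted p = 0.655), with no spot of 28970 (0%) called in that contrast.

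Of the mTOR subunits, the kinase MTOR read −0.58, −0.19, −0.23 and −0.17 at 6 h, a mean of −0.29 (SD 0.19, n = 4; adjusted p = 0.529, limma) with all 4 arrays below 0. The untreated arrays of 0 h gave −0.42, −0.32, −0.08 and 0.07 (mean −0.19), and the 2 times differed by −0.11 (SE 0.14, adjusted p = 1.000). Replicate 1 was the lowest MTOR array at 0, 3, 6 and 9 h, at −0.42, −0.30, −0.58 and −0.46. The mean at 9 h was −0.13 (SD 0.27).

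RPTOR, the scaffold of mTORC1, had means of −0.19, 0.02, −0.07 and −0.06 at 0, 3, 6 and 9 h, the one farthest from 0 being that of untreated cells (adjusted p = 0.873). Its arrays had both signs at each of the 4 times. RICTOR, the scaffold of mTORC2, had means above 0 on both of its spots at 6 and 9 h, with replicate 4 the highest array. At 6 h its spot A read 0.34, 0.16, 0.06 and 0.72 (mean 0.32, SD 0.29, adjusted p = 0.566) and its spot B 0.10, −0.01, 0.18 and 0.83 (mean 0.28, SD 0.38, adjusted p = 0.603).

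At 9 h RICTOR read 0.17, 0.13, 0.07 and 1.08 on spot A and −0.01, 0.19, 0.29 and 1.06 on spot B, with means of 0.36 and 0.38 that became 0.12 and 0.16 without replicate 4. Replicate 4 was thus the highest array on both RICTOR spots and both SESN1 spots and the lowest on the DDIT4 mRNA spot. In untreated cells at 0 h spot A read 0.34, 0.47, 0.00 and −0.17 (mean 0.16) and spot B had a mean of 0.09. Spot A at 6 h was thus 0.16 above 0 h (SE 0.21, adjusted p = 1.000) and spot B 0.19 above (SE 0.20, adjusted p = 1.000). At 6 h spot A of RICTOR was 0.52 above its value at 3 h (SE 0.21, adjusted p = 0.572), and spot B 0.31 above (SE 0.20, adjusted p = 0.675).

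Of the 12 spots, 4 were below 0 on all arrays at 6 h (DDIT4 mRNA, SESN2, TSC2 and MTOR) against 9.18% of all spots, and 1 was above 0 on all (RICTOR spot A) against 9.35%. At 9 h 2 were below (DDIT4 mRNA and TSC2) against 10.3%, and 3 above (both SESN1 spots and RICTOR spot A) against 9.72%. At 0 h 1 was below (TSC2) against 6.9% and 0 were above against 5.69%, and at 3 h 0 were below against 7.93% and 0 above against 5.09%. Between 6 h and 0 h, and between 6 h and 3 h, no spot was called either (0% of 28970 in each).

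**Figure D3:**
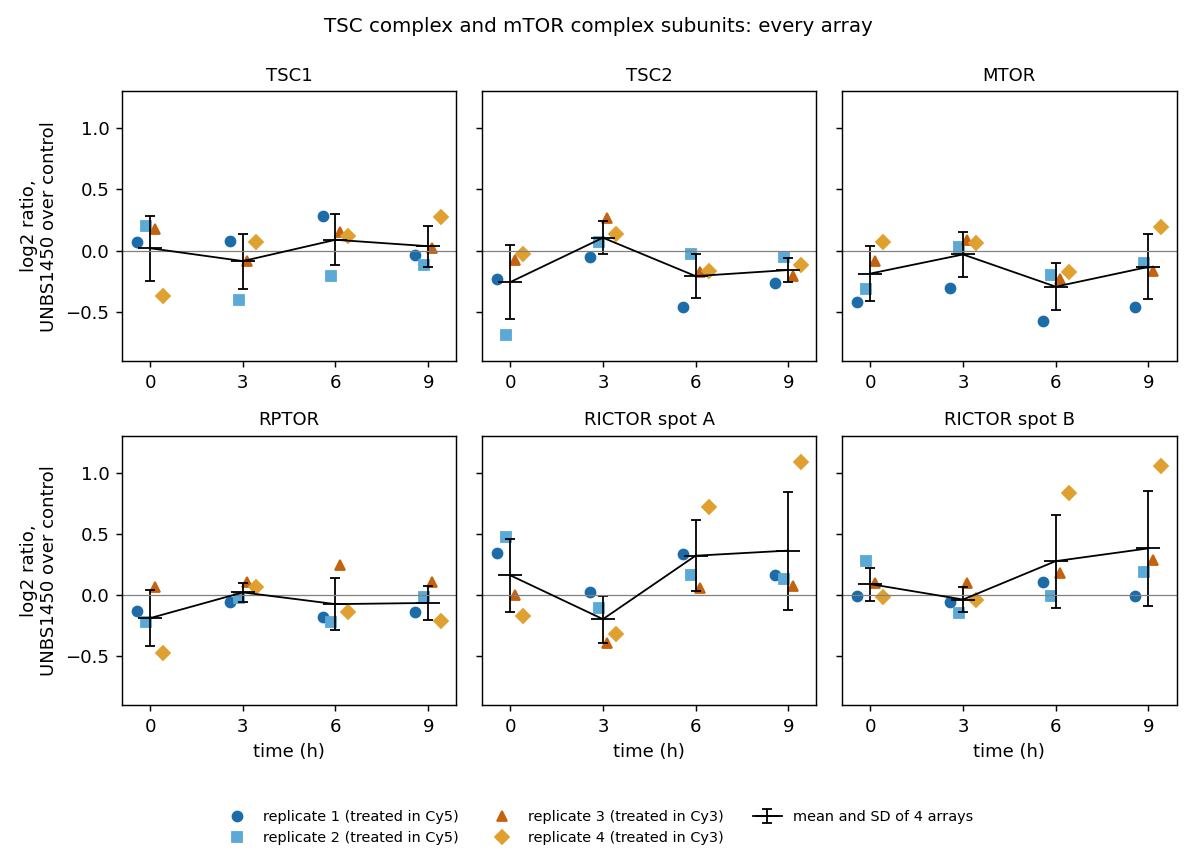
TSC1, TSC2, MTOR, RPTOR and both RICTOR spots by array, with time in hours on the x axis and the log2 ratio of UNBS1450-treated over control RNA on the y axis, points for arrays, and means with the SD of 4 arrays. The TSC2 and MTOR means lie below 0 at 6 h but also at 0 h in untreated cells. The RICTOR means at 9 h rest on replicate 4 at 1.08 and 1.06.

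The wider pathway was read from 6 lists of genes around these members, each gene by its spot with the highest F-statistic. All 12 genes of the mTOR complexes were measured and limma called none of them. Their median was −0.16 at 6 h and −0.08 at 9 h, against −0.0051 and 0.0023 over all genes, with 10 of 12 below 0 at 6 h. The same was seen in untreated cells at 0 h, with a median of −0.18 and 10 of 12 below 0, where the list median was −0.31 and −0.41 on replicates 1 and 2 and 0.06 and 0.01 on replicates 3 and 4. MLST8, a subunit of both complexes, was at −0.25 at 6 h and −0.07 at 9 h, and DEPTOR, an inhibitor of mTOR, at 0.01 and −0.17.

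The 5 genes of the TSC complex and RHEB had medians of −0.03 at 6 h and 0.04 at 9 h and no call, with RHEB at 0.05 and 0.08. Of the lysosomal amino acid sensing genes, which carry the sestrin signal, 22 of 27 were measured and none was called, with a median of 0.06 at 9 h and a range of −0.43 for KICS2, a KICSTOR subunit, to 0.51 for FLCN, the folliculin gene. Both ends had replicate 4 farthest from 0, and without it they were −0.26 and 0.26. The Rag GTPase gene RRAGD was at 0.22 at 9 h. The upstream kinases of the PI3K, AKT and AMPK branches had 21 of 27 measured, a median of 0.05 at 9 h and no call, with the AMPK subunit PRKAA1 at 0.25, 0.98, −0.08 and 0.22 (mean 0.34, SD 0.45), of which replicate 2 stood highest.

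Of the genes listed as mTORC1 outputs, 21 of 23 were measured. The list was set by name, and a place on it does not show that mTORC1 acts on the gene. The ratios are of RNA and do not measure the activity of mTORC1. At 9 h 1 gene of this list was called higher, where 0.375% of all genes were called higher. The called gene was LPIN1, a phosphatidate phosphatase that mTORC1 keeps out of the nucleus. It read 0.47, 0.29, 0.24 and 1.02 (mean 0.50, SD 0.36, adjusted p = 0.0451, limma). Without replicate 1, 2, 3 or 4 it was 0.52, 0.57, 0.59 and 0.33. It was not called in any of these fits (adjusted p = 0.0750 without replicate 4, limma). The mean of its 2 spots was 0.43 at 9 h and was not called. RPS6KB1, which encodes S6 kinase, was at 0.15, EIF4EBP1, the translation repressor, at −0.17, and ULK1, a starter of autophagy, at −0.02 at 9 h, none of them called. The list median was 0.03, in a range of −0.56 for EEF2K to 0.78 for SGK1, neither of them called. Both ends had replicate 4 farthest from 0, and without it they were −0.17 and 0.40.

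Of known inducers of DDIT4 and the sestrins, 11 of 13 were measured and 1 was called, lower at 9 h, where 0.375% of all genes were called lower. CEBPB, a basic leucine zipper factor, read −0.27, −0.35, −0.22 and −0.74 (mean −0.40, SD 0.23, adjusted p = 0.0451, limma). This call too was lost without any one replicate, at −0.44, −0.41, −0.45 and −0.28 without replicate 1, 2, 3 or 4. The gene has 12 spots, and its mean over all of them was −0.32 at 9 h, which was not called. ATF4, the main factor of the integrated stress response, was at −0.27, −0.42, −0.35 and −0.30 at 9 h (mean −0.33, SD 0.065), a narrow spread. It was not called, as it passed neither the 1.3-fold limit nor the p limit (adjusted p = 0.0516, limma). The mean of its 3 spots was −0.30 at 9 h. HIF1A, the hypoxia factor, was at 0.35 at 6 h and 0.30 at 9 h. TXNIP, which binds thioredoxin and DDIT4 protein, was at 1.12, 0.53, 0.92 and 2.57 at 9 h (mean 1.29, SD 0.89, adjusted p = 0.0516), and 0.86 without replicate 4.

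SLC7A5, the leucine importer that feeds mTORC1, was called lower at 9 h, at −0.66, −0.28, −1.09 and −0.59 (mean −0.66, SD 0.33, adjusted p = 0.0385, limma). In untreated cells at 0 h it read −0.48, −0.40, −0.01 and −0.04 (mean −0.23, SD 0.24). The 9 h call was lost without any one replicate, at −0.65, −0.78, −0.51 and −0.68 without replicate 1, 2, 3 or 4. No marker gene of the monocytic lineage (10 of 12 measured) or of other blood lineages (10 of 13) was called at any time, with medians at 9 h of −0.05 and 0.0094.

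**Figure D4:**
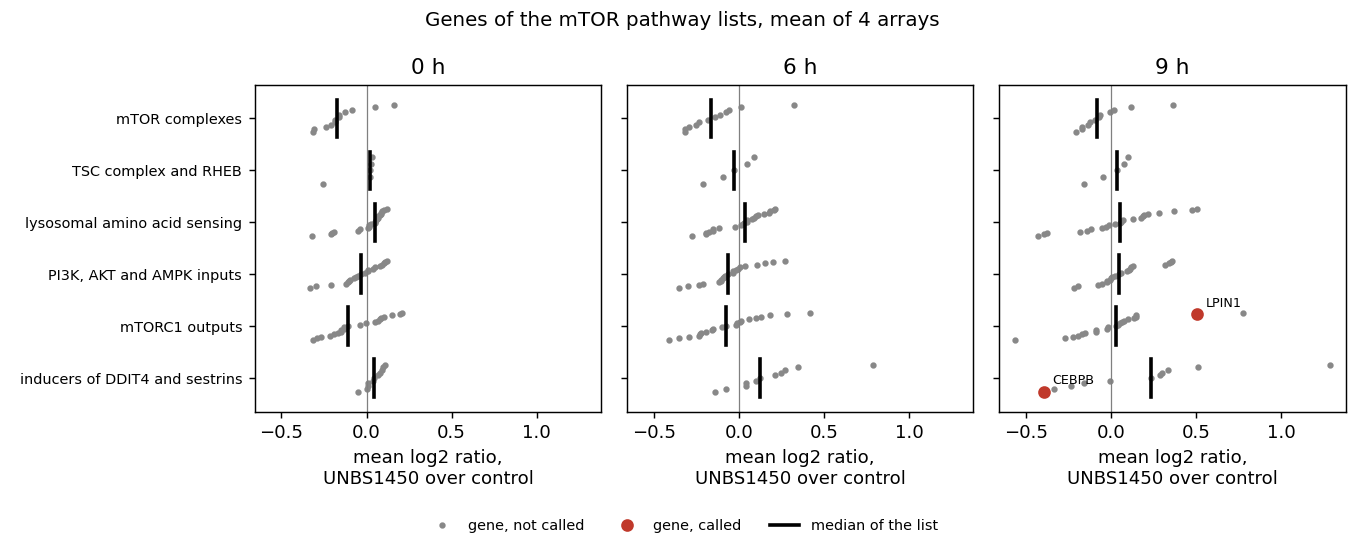
Mean log2 ratio of UNBS1450-treated over control RNA on the x axis for each gene of 6 pathway lists, one list per row, at 0, 6 and 9 h from left to right. Grey points are genes not called, red points called genes and black bars list medians; the mTOR complexes have a median of −0.18 at 0 h and −0.16 at 6 h, and LPIN1 at 0.50 and CEBPB at −0.40 are the called genes at 9 h.

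The genes whose course over the 16 arrays was most like that of DDIT4 were taken by Pearson's r across arrays after the mean of each dye orientation was removed. The 6 highest were EPB41L4A-DT, a long non-coding RNA (r = 0.98), ZDHHC11, a palmitoyltransferase gene (0.97), SCARNA17, a small Cajal body RNA (0.97), PYCR3, an enzyme of proline synthesis (0.96), ZNF777, a zinc finger gene (0.96), and PARS2, the mitochondrial prolyl-tRNA synthetase (0.96). All of these r are descriptions over arrays that share dyes and times, and they became 0.90 to 0.93 without replicate 4. With dye orientation left in, 3 of these 6 genes were again among the top 6, and r was 0.84 for ZDHHC11 and 0.71 for PYCR3.

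At 9 h EPB41L4A-DT read −0.35, −0.14, −0.66 and −1.72 and PARS2 −0.46, −0.34, −0.49 and −1.81. Both had their lowest array in replicate 4, as DDIT4 did. The means at 9 h were −0.47 for ZDHHC11, −0.92 for SCARNA17 and −0.70 for ZNF777. A lower value at 9 h follows from choosing genes by their likeness to DDIT4, so no call is read for these 6 genes.

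Among the members, SESN1 (r = −0.82, spot B), RICTOR (−0.83, spot A) and SESN3 (−0.66) ran opposite to DDIT4. Without replicate 4 these values were −0.61, −0.35 and −0.49. With 17328 genes ordered from the most like, the 3 stood at places 16652, 16680 and 15560. Many other genes thus ran more opposite to DDIT4, down to an r of −0.98. SESN2 had an r of 0.13 that was 0.83 without replicate 4. TSC1, TSC2, MTOR and RPTOR lay at −0.40, 0.31, 0.060 and 0.15, and without replicate 4 at −0.068, 0.33, 0.40 and −0.11.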

How the data were processed

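Total RNA of UNBS1450-treated and control U937 cells was hybridised to 16 two-colour Agilent whole-genome arrays, 4 per time point. Per the methods and processing notes, the authors subtracted background (normexp), normalized within arrays (loess) and between arrays (Aquantile) with limma, and deposited log2 ratios of Cy5 over Cy3 per spot, not turned for the dye swap. Medians of the deposited columns lay between −0.0071 and 0.0033, and the centring before deposit is not given beyond these steps. Of 45220 spots, 40563 had values on all arrays and 4657 had none. Of those with values, 86 had several symbols and 11507 had no gene symbol in the annotation used. This left 28970 spots of 17329 genes. Spot weights, intensities and flags were not used here, so precision is limited by the number of arrays.

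Signs of replicates 3 and 4 were reversed. Scale and direction follow the labelled dyes and were checked at 9 h on 198 genes of the study's gene table. These were genes that the study itself called at 9 h, matched to 1 spot. Genes with an average log2 expression under 7.5 in that table were left out. Of the 198 means, 186 lay within 0.01 of the study's log2 fold change and 198 had the same sign. Turned arrays of one time correlated at 0.44 to 0.68 across spots in the same dye orientation and at −0.56 to −0.12 in opposite orientations. limma 3.58.1 in R 4.3.3 (statmod 1.5.0 for random blocks) fitted 1 coefficient per time (residual degrees of freedom 12, prior 3.29), with contrasts between times. p-values were adjusted by Benjamini-Hochberg over 28970 spots, and a gene was called at a fold of 1.3 or more either way with an adjusted p under 0.05, on its spot with the highest F over 3, 6 and 9 h. Figures used Python 3.11.15 with pandas 2.3.3 and matplotlib 3.10.9. The fit was tested on simulated data.

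The genes named are the members, a fixed set of anchor genes that includes SLC7A5, called list genes and the 6 genes most like DDIT4. KICS2, FLCN, EEF2K and SGK1 were named after their values were seen. The members and lists were chosen with earlier results of these data known. The alternatives comprised dye, block, robust and weighted fits, own-array fits, array scaling, other spot choices and adjustments, leaving out a replicate, and each dye orientation alone.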

Additional observations from a re-analysis of the deposited data

Results flagged for a closer look

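Dixon's test was run on 61 groups of 4 arrays, 48 of member spots at all times and the rest of some named list genes at 9 h. KICS2, FLCN, EEF2K and SGK1 were not tested. In 7 of the 61 groups, 1 array stood apart from the other 3, which chance alone gives in about 1 of 20 independent groups. These groups share arrays and some are spots of 1 gene, so that share is only a rough guide. In 4 of the 7 the array apart was replicate 4 at 9 h. SESN1 spot A read 1.10 there, against 0.05 to 0.17 on the other arrays, and RICTOR spot A read 1.08 against 0.07 to 0.17. DEPTOR read −0.90 against 0.03 to 0.12, and RRAGD read 0.60 against 0.05 to 0.11. MTOR was apart in replicate 1, at −0.30 at 3 h against 0.03 to 0.09, and at −0.58 at 6 h against −0.23 to −0.17. RPTOR was apart in replicate 3 at 6 h, at 0.24 against −0.22 to −0.14. DDIT4 was not among them.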

How the results depend on the processing

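The 9 h values of DDIT4 chose the set, so its calls below are a description. DDIT4 was below 0 at 9 h under all 17 alternatives, from −1.88 to −0.67, and called in 10. It was not called with array weights (−0.99), on its own 4 arrays or with adjustment over 3 times together (−1.33 in both), in replicates 3 and 4 alone (−1.88) or without replicate 1, 2 or 3, and was −1.54 to −0.94 when a replicate was left out, which also unbalances the dyes; it was called without replicate 4 (−0.94). At 6 h robust regression called it (−0.52), and with it 1 member gene. Genes called at 9 h numbered 130, against 520 with a dye coefficient, 313 with robust regression (2, 5 and 8 at 0, 3 and 6 h), 77 with scaled arrays, 65 when all spots were tested, 12 in replicates 1 and 2 alone, 0 to 61 without a replicate (61 without replicate 4, 0 without replicate 1 or 3, 3 without replicate 2), and 0 with array weights, own arrays, replicates 3 and 4 alone or adjustment over 3 times together. Member genes called at 9 h numbered 1, but 0 with array weights, own arrays, replicates 3 and 4 alone or adjustment over 3 times together, and 0 to 1 without a replicate. With the replicate block 699 genes and 2 members were called, the second being SESN1 (spot B, 0.48). Same-numbered arrays correlated at 0.061 to 0.66, over 0.1 in 23 of 24 pairs and best with their own number in 16. They also share their dye orientation at every time, and how much of these correlations goes with the dye was not tested. The labels tie the numbers to no shared culture or day, so same-numbered arrays were not taken as pairs. The 11 other spots had 1 call, that of SESN1, in 616 values, and changed sign in 8 of 154 at 9 h and 6 of 154 at 6 h. Over 17 alternatives chosen after seeing the data for these genes, LPIN1 was called in 6, CEBPB in 4 and SLC7A5 in 8. The cause of these differences was not tested. With 4 arrays and no intensities, a weak spot cannot be told from an unchanged gene.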
